A study of Mus musculus with 4 samples.

Results

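DNA replication and mitosis genes were followed in mouse skin treated with retinoic acid and nicotinamide creams. They are 40 genes listed by symbol, and members were taken as the array targets whose deposited gene name equals a listed symbol. That gave 37 members, measured by 55 targets, among 24171 gene symbols on the array. Cdk1 and Cdc45 stand on the array under the older names Cdc2a and Cdc45l and were matched by gene ID, so their values are given but not counted among the 37. Plk1 was not analysed here. Of the members, 20 act in DNA replication or entry into S phase and 17 in mitosis.

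Cy3-labelled cDNA made from skin RNA was hybridised to 1-colour NimbleGen expression arrays, 1 array for each of 4 groups. All groups were male BALB/c mice of 8 weeks whose back skin received cream 2 times a day for 5 days. The ATRA group received a cream with 0.1% all-trans retinoic acid, the acid form of vitamin A that acts through nuclear receptors. The ATRA+NIC group received that cream together with a nicotinamide cream, the NIC group the nicotinamide cream alone, and the Control group an oil/water cream. Nicotinamide, a vitamin B3 compound from which cells make NAD, was the other agent. Its concentration is not given in the sources used here, nor is it stated if any array held a pool of mice. The title of the series names the epidermis and the sample labels name skin. With 1 array a group, no difference could be set against a spread between replicates, none has a test, and "higher" and "lower" below compare single arrays.

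Before a cell divides it copies its DNA once. Origins are licensed in G1 by loading the MCM helicase with Cdc6 and Cdt1, cyclin E and E2F factors drive the step into S phase, and polymerases and nucleotide-making enzymes carry out synthesis. In mitosis cyclin B with Cdk1, the Aurora kinases, the spindle checkpoint and kinesin motors separate the copies. In skin these genes are known mainly from dividing basal keratinocytes of the epidermis and from the matrix of growing hair follicles. In whole skin, fewer cells of a type and less RNA per cell cannot be told apart.

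The deposited values are intensities, which were put on the log2 scale, and targets of one gene were averaged. Over all targets the median intensity was 102 for ATRA, 102 on ATRA+NIC, 103 on NIC and 105 on Control. Random control probes, which match no transcript, read 34.0 to 36.3. Across the 14552 symbols kept because they were at or above the array's median on at least 1 array, arrays correlated with Pearson r of 0.913 to 0.951, computed over genes of the same arrays. Of the 37 members, 34 were among the symbols kept. Cdc6, Ccne2 and Bub1 were not, Gins1 was kept through ATRA+NIC alone, and Pola1 through ATRA and ATRA+NIC. The basal keratins Krt5 and Krt14 were bright on all arrays: Krt5 read 36543 on ATRA, 30034 on ATRA+NIC, 26607 on NIC and 25470 on Control. Krt14 read 35066, 34261, 31801 and 32685 on the same arrays.

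Most members read lower on ATRA+NIC than on ATRA. For ATRA+NIC minus ATRA, 28 of 37 members were below 0, against 52.9% of symbols kept, and the member median was -0.37 against -0.03. At least 2-fold lower were 5 members, Cdt1, Bub1b, Foxm1, Mcm2 and E2f1, against 4.26% of symbols kept. E2f1 was at -0.95 after cyclic loess, and Foxm1 at -0.71 with its brightest target, so neither passed 2-fold there, and with brightest targets Uhrf1 (-1.03) did. None was 2-fold higher, against 5.00%. At least 1.5-fold lower were 12 members, against 11.7% of symbols kept, and 2 were 1.5-fold higher, Mcm6 and Cdc6, against 10.8%. The members lay lowest on ATRA+NIC in 19 of 37 cases, against 26.2% of symbols kept, and highest on ATRA in 17, against 24.4%.

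**Figure D1:**
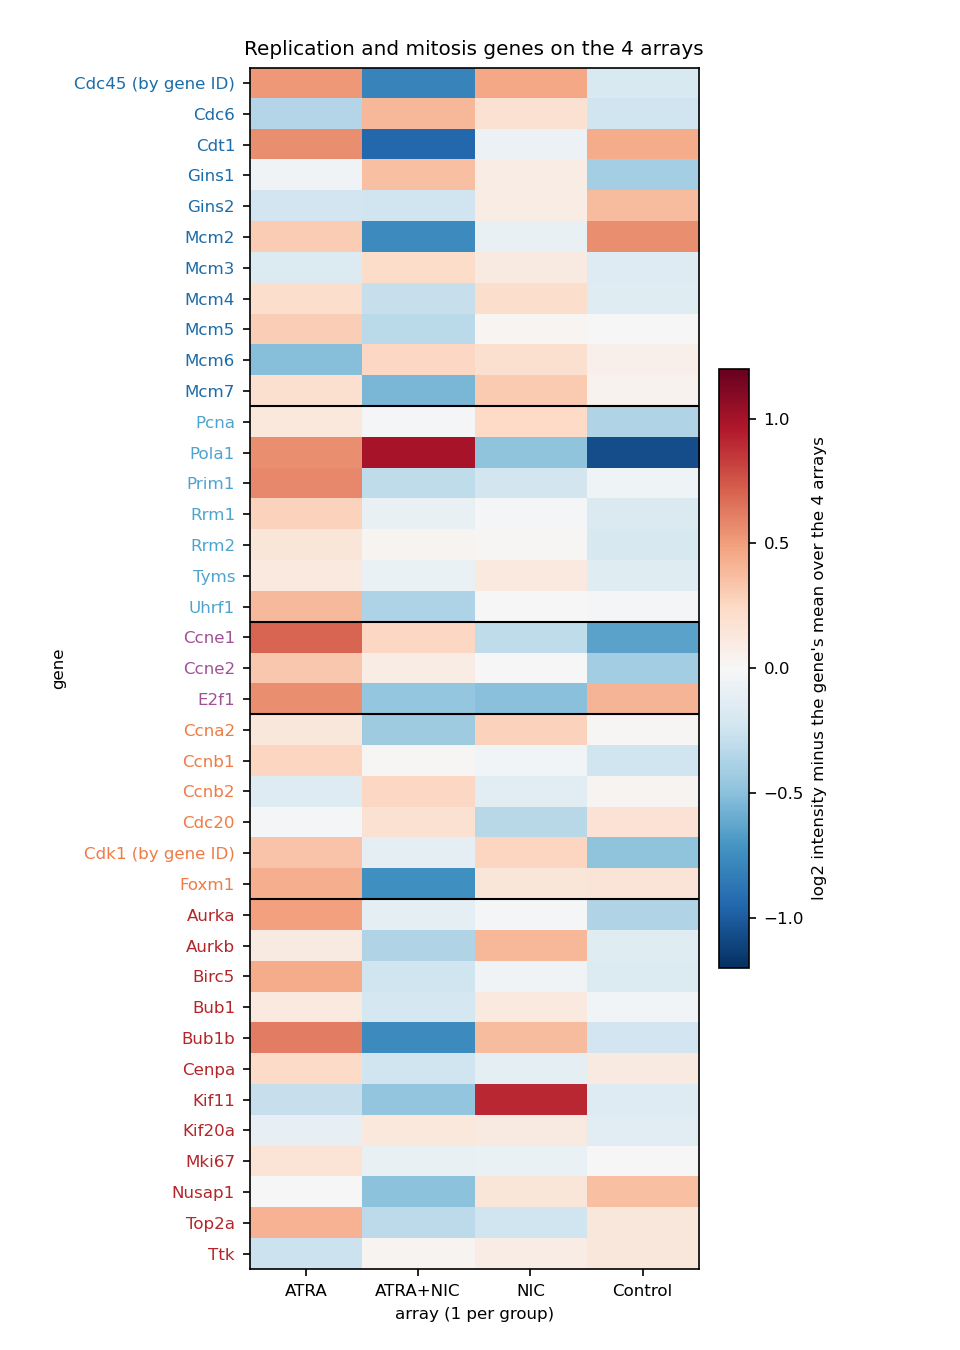
Log2 intensity of each replication and mitosis gene on the 4 arrays, shown as the distance from that gene's mean over the arrays, with genes in rows by role. The ATRA+NIC column is the lowest of the row for 19 of the 37 members and the ATRA column the highest for 17.

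Without nicotinamide, ATRA skin read slightly higher than Control skin for most members. In ATRA minus Control, 27 of 37 were above 0, against 55.0% of symbols kept, with a median of 0.26 against 0.06. Pola1 and Ccne1 were at least 2-fold higher, against 4.11% of symbols kept, and no member was 2-fold lower, against 5.48%. At least 1.5-fold higher were 7 members (Pola1, Ccne1, Aurka, Bub1b, Ccne2, Prim1 and Birc5), against 13.0% of symbols kept. Gins2 alone was 1.5-fold lower, against 12.3%. The ATRA array enters this contrast and the one above with opposite signs, so a high reading there acts on both.

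With nicotinamide on both sides, the same contrast lay the other way for most members, mainly those of mitosis. ATRA+NIC minus NIC has no array in common with ATRA minus Control. The ATRA+NIC array enters it and ATRA+NIC minus ATRA with the same sign, so a low reading there lowers both. Across ATRA+NIC minus NIC, 24 of 37 members were below 0, against 50.4% of symbols kept, with a median of -0.10 against -0.0050. Below 0 were 13 of 17 mitosis members (median -0.13) and 11 of 20 replication members (median -0.08). The replication share was near that of symbols kept. Kif11 and Bub1b were at least 2-fold lower, against 7.59%, and Pola1 was at least 2-fold higher, against 6.92%. At least 1.5-fold lower were 9 members, against 16.3% of symbols kept: Kif11, Bub1b, Foxm1, Cdt1, Mcm7, Aurkb, Ccna2, Mcm2 and Nusap1. These 2 contrasts are called the ATRA differences below. Above 0 without nicotinamide and below 0 with it were 19 members, against 25.5% of symbols kept. When the ATRA difference without nicotinamide was taken from that with it for each gene, 30 of 37 members were below 0, against 53.8% of symbols kept, with a median of -0.46 against -0.06. This value uses each of the 4 arrays once, and taking NIC minus Control from ATRA+NIC minus ATRA gives the same number.

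**Figure D2:**
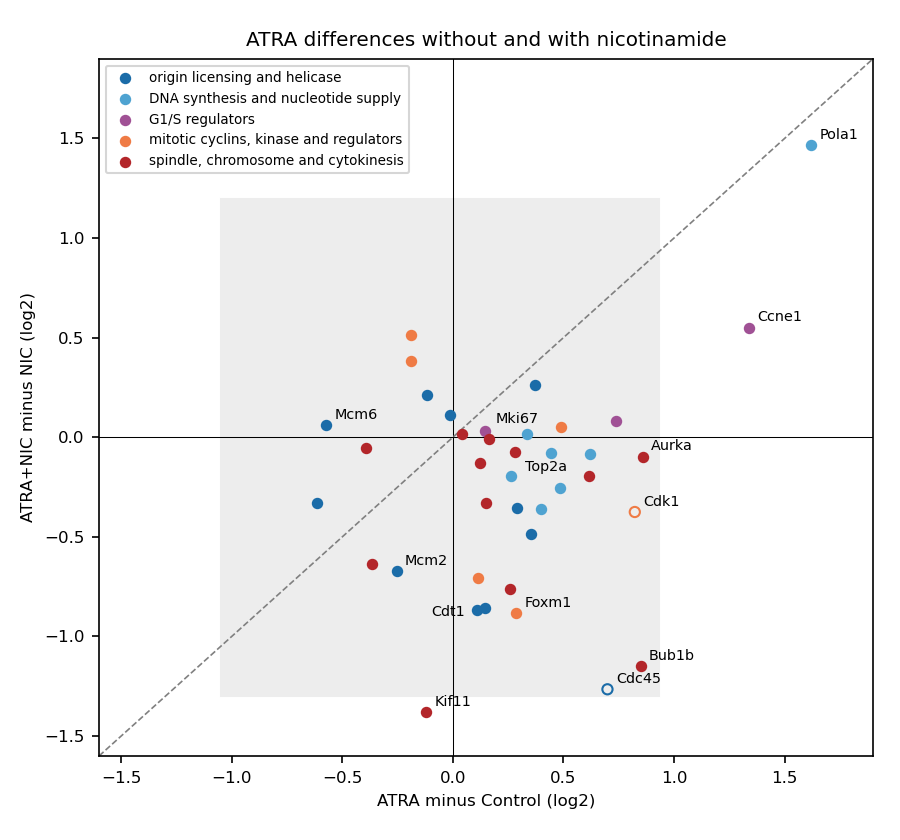
Each point is a gene, coloured by role, with its log2 ATRA minus Control on the horizontal axis and its log2 ATRA+NIC minus NIC on the vertical axis. The grey box holds the middle 90% of symbols kept on each axis, the dashed line marks equal values, and open points are Cdk1 and Cdc45. Right of 0 and below 0 lie 19 of the 37 members, and Pola1 stands high on both axes.

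NIC skin read slightly higher than Control skin for most members, mainly those of replication. The Control array enters this contrast and ATRA minus Control with the same sign, so a low reading there raises both. In NIC minus Control, 24 of 37 members were above 0, against 52.9% of symbols kept, with a median of 0.15 against 0.04. Above 0 were 15 of 20 replication members (median 0.23) and 9 of 17 mitosis members (median 0.13). The mitosis share was that of symbols kept. Kif11 was at least 2-fold higher, against 5.33%, and none was 2-fold lower, against 5.36%. At least 1.5-fold higher were Kif11, Bub1b, Pcna and Pola1, against 14.9%, and 1.5-fold lower E2f1 and Mcm2, against 13.9%. Above 0 in NIC minus Control and below 0 in ATRA+NIC minus ATRA, which share no array, were 18 members, against 27.9% of symbols kept.

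Against Control, the combined creams left the members spread to both sides. In ATRA+NIC minus Control the median was -0.11 against 0.02 for symbols kept, and 21 of 37 were below 0, against 48.5%. Pola1 was at least 2-fold higher, against 5.81%, and Cdt1 and Mcm2 at least 2-fold lower, against 7.00%. Past 1.5-fold, 4 members were higher (Pola1, Ccne1, Gins1 and Cdc6), against 14.7% of symbols kept, and 7 lower (Cdt1, Mcm2, Foxm1, E2f1, Nusap1, Gins2 and Mcm7), against 15.0%. Of the 4 higher, Cdc6 read under 2 times the random probes on all arrays and Pola1 did on Control. The dim target of Gins1 was at 1.16, reading 32.9 on Control, and its bright target at 0.38. ATRA+NIC minus Control shares an array with each of the other 4 contrasts.

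**Figure D3:**
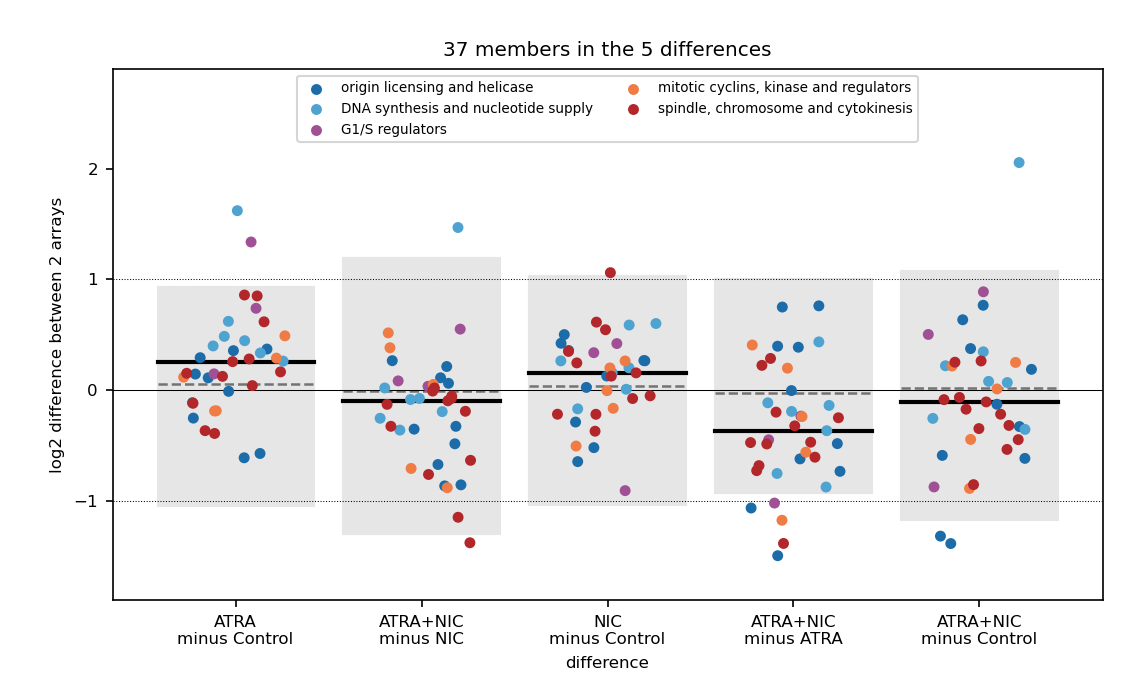
Log2 differences of the members between single arrays, coloured by role, for each comparison. Thick lines are member medians, dashed lines the medians of symbols kept, grey boxes their middle 90%, and dotted lines mark 2-fold. The points of ATRA+NIC minus ATRA lie mostly below 0 (28 of 37) and those of ATRA minus Control mostly above (27 of 37).

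The promoters of these genes carry known cell cycle elements, and 4 are shown: Cdt1, Pola1 and Bub1b were at least 2-fold apart in a comparison, and Top2a is a standard marker of dividing cells. RefSeq sequences of build GRCm38.p6 were at hand for 31 of the 39 genes, each from 250 bases before to 50 after the annotated start, and are written 5′ to 3′ on the gene's strand. The E2F site was searched as TTTCCCGC or TTTGGCGC, the CHR element, a cell cycle element bound by MuvB complexes, as TTTGAA, and the CCAAT box, bound by NF-Y, as CCAAT, each on both strands. No matches of different elements overlapped in these promoters. Capitals mark the E2F site in Cdt1 (chr8:122567765-122568064, plus strand) and Pola1 (chrX:93632106-93632405, minus strand). They mark the CHR elements in Bub1b (chr2:118597961-118598260, plus strand) and Top2a (chr11:99024140-99024439, minus strand).
Cdt1: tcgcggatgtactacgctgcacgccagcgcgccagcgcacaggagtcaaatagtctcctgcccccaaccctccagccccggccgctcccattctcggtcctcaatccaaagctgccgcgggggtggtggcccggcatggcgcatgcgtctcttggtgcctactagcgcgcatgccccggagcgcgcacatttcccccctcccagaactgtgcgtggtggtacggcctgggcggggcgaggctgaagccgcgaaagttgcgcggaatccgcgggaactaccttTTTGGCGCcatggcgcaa
Pola1: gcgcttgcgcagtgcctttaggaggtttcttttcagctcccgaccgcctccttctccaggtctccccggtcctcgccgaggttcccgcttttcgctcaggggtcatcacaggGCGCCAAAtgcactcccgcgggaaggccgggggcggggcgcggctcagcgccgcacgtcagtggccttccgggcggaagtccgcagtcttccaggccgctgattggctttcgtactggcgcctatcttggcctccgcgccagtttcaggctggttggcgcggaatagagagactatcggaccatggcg
Bub1b: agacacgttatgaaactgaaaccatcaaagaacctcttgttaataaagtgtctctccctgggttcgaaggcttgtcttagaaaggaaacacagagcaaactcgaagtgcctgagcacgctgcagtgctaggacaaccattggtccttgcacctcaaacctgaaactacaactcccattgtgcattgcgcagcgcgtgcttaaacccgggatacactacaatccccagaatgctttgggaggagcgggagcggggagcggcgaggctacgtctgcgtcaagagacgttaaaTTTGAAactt
Top2a: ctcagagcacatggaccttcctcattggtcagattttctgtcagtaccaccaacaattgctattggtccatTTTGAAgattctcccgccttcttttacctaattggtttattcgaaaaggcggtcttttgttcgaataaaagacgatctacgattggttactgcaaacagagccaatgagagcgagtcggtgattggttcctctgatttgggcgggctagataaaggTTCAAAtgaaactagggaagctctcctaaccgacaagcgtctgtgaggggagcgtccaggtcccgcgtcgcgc

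The E2F site was present in 7 of 31 genes, against 1.80% of all genes in the promoter table (1.56% of its 32851 promoters, all of the same length), and all 7 were among the 17 replication genes with a promoter. The CHR element was present in 12 of 31, against 20.2% of genes (17.9% of promoters), with 10 of them among the 14 mitosis genes. The CCAAT box was present in 24 of 31, against 41.1% of genes (37.4% of promoters). Genes that share an element could differ on the arrays: Cdt1 and Pola1, both with an E2F site, were at -1.50 and 0.43 in ATRA+NIC minus ATRA. Bub1b and Kif11, both with a CHR element, were at 0.85 and -0.12 in ATRA minus Control. A match of letters describes the window and does not show a bound site.

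Among the genes of origin licensing and the helicase (10 members), Cdt1 differed most. Cdt1, which loads the MCM helicase onto origins (MM9 chromosome 8, 125091914 to 125097030), read 352 on ATRA, 125 on ATRA+NIC, 227 on NIC and 326 on Control. ATRA+NIC was the lowest array and ATRA and Control lay close together. Its log2 difference was -1.50 (ATRA+NIC minus ATRA) and -0.87 for ATRA+NIC minus NIC.

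Mcm2, a subunit of the helicase (MM9 chromosome 6, 88833467 to 88848683), read 381 on ATRA, 182 on ATRA+NIC, 290.3 on NIC and 455 on Control. Each array with nicotinamide read lower than its partner without it, with log2 differences of -1.07 in ATRA+NIC minus ATRA and -0.65 in NIC minus Control. The other subunits did not follow one course. For ATRA+NIC minus ATRA, Mcm7 was at -0.73, Mcm5 at -0.62 and Mcm4 at -0.48, while Mcm3 was at 0.39 and Mcm6 at 0.76. The Mcm6 value came from a pair of targets that went apart: the dim one read 36.6 on ATRA and 125 on ATRA+NIC, and the bright one 1958 on ATRA and 1644 on ATRA+NIC.

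Cdc45, which travels with the helicase at the fork, was matched by gene ID and read 389 on ATRA, 155 on ATRA+NIC, 374 on NIC and 239.8 on Control. Only ATRA+NIC lay below Control. Its ATRA differences were 0.70 without and -1.27 with nicotinamide. Gins1 and Gins2, subunits of the GINS complex of the same helicase, were at 0.40 and -0.01 in ATRA+NIC minus ATRA. The dim target of Gins1, which read 41.6 on ATRA, was at 0.82 there, and its bright target at -0.03. Cdc6, the other loading factor, read under 2 times the random probes on all 4 arrays, so its differences carry little information. The median of the group was -0.24 in ATRA+NIC minus ATRA and 0.05 in ATRA minus Control.

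All 7 members of DNA synthesis and nucleotide supply were above 0 in ATRA minus Control, against 55.0% of symbols kept, with a median of 0.45. Pola1, the catalytic subunit of DNA polymerase alpha, was measured by 1 target (MM9 chromosome X, 90869121 to 90877494). It read 145 on ATRA, 197 on ATRA+NIC, 71.1 on NIC and 47.3 on Control. Both arrays with ATRA lay above both without it, by log2 ATRA differences of 1.62 without and 1.47 with nicotinamide. Its Control value was under 2 times the random probes, and with values raised to that floor the differences were 1.09 and 1.47. Prim1, the primase subunit of the same complex, did not share this pattern: its ATRA differences were 0.62 and -0.09.

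Pcna, the sliding clamp of the polymerases, read 7912 on ATRA, 7183 on ATRA+NIC, 8574 on NIC and 5655 on Control. Control was the lowest array. Rrm1 and Rrm2, the subunits of ribonucleotide reductase, were at -0.37 and -0.12 in ATRA+NIC minus ATRA, and Tyms, thymidylate synthase, was at -0.19. Prim1 (-0.88) and Uhrf1 (-0.75), which guides DNA methylation to new strands, were the lowest of the group in that comparison.

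The G1/S regulators were cyclin E1, cyclin E2 and E2f1. Ccne1, which activates Cdk2 at the start of S phase (MM9 chromosome 7, 38883002 to 38892536), read 379 on ATRA, 278 on ATRA+NIC, 189.6 on NIC and 150.1 on Control. Both arrays with ATRA were again the higher ones, with ATRA differences of 1.34 without and 0.55 with nicotinamide. Ccne2 was at 0.74 and 0.08 in the same comparisons, and it was below the filter on dim symbols.

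E2f1, a transcription factor that switches on S phase genes (MM9 chromosome 2, 154388673 to 154395153), read 292 on ATRA, 144 on ATRA+NIC, 140.4 on NIC and 264 on Control. Both arrays with nicotinamide read lower than both without it. Its log2 differences were -1.02 in ATRA+NIC minus ATRA and -0.91 in NIC minus Control, while the ATRA differences were 0.15 and 0.03.

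Among the mitotic cyclins and regulators, Foxm1 was lower on ATRA+NIC than on the other arrays. Foxm1, a transcription factor of G2 and M phase genes (MM9 chromosome 6, 128312993 to 128325904), read 545 on ATRA, 241 on ATRA+NIC, 445 on NIC and 447 on Control. NIC and Control were level. The log2 difference for ATRA+NIC minus ATRA was -1.18, and the 2 targets behind it gave -0.71 and -1.64.

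Ccnb1, cyclin B1, read 748 on ATRA, 633 on ATRA+NIC, 612 on NIC and 533 on Control. Its differences were small, and its targets went apart in ATRA+NIC minus NIC, at -0.37 and 0.47. Cdk1, the kinase it activates, was matched by gene ID and read 1269 on ATRA, 919.6 on ATRA+NIC, 1193 on NIC and 717 on Control. Control was its lowest array. Ccna2, cyclin A2, was at -0.56 in ATRA+NIC minus ATRA, whereas Ccnb2, cyclin B2, and Cdc20, an activator of the anaphase-promoting complex, were at 0.41 and 0.20.

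Spindle, chromosome and division genes (12 members) had the lowest group median in ATRA+NIC minus ATRA, -0.47, with 10 of 12 below 0, against 52.9% of symbols kept. Against NIC, 11 of 12 ATRA+NIC values were lower, against 50.4% of symbols kept, with a median of -0.16. Bub1b, a spindle checkpoint kinase-like protein (MM9 chromosome 2, 118424014 to 118467325), read 363 on ATRA, 139 on ATRA+NIC, 308 on NIC and 202 on Control. Each cream alone read above Control and the combination below it. The log2 differences were 0.85 for ATRA minus Control, -1.15 for ATRA+NIC minus NIC, 0.61 for NIC minus Control and -1.39 for ATRA+NIC minus ATRA.

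Kif11, the kinesin that holds the spindle poles apart (MM9 chromosome 19, 37450892 to 37496349), read 125 on ATRA, 109 on ATRA+NIC, 283 on NIC and 136 on Control. The NIC array alone stood out, and the difference was 1.06 for NIC minus Control and -1.38 for ATRA+NIC minus NIC. Top2a, the topoisomerase that untangles sister chromatids (MM9 chromosome 11, 98854260 to 98871913), read 1763 on ATRA, 1064 on ATRA+NIC, 1122 on NIC and 1452 on Control. Each array with nicotinamide was the lower of its pair, at -0.73 in ATRA+NIC minus ATRA and -0.37 in NIC minus Control.

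Mki67, the gene of the Ki-67 proliferation antigen, read 1208 on ATRA, 1015 on ATRA+NIC, 1022 on NIC and 1078 on Control. Averaged over its 3 targets it had the smallest range over the arrays of any member, 0.25 on the log2 scale, against a member median of 0.73 and a median of 0.70 over symbols kept. The targets went apart, however: in NIC minus Control they were at -0.29, -0.35 and 0.40, and the range of the brightest alone was 0.63. Aurka, a spindle pole kinase, was at 0.86 for ATRA against Control and -0.61 for ATRA+NIC against ATRA. Birc5 (survivin) and Aurkb, partners in the chromosomal passenger complex, were at -0.68 and -0.48 in ATRA+NIC minus ATRA. Nusap1, a spindle microtubule protein, was at -0.49, Cenpa, the centromeric histone, at -0.47, and the checkpoint kinase Bub1 at -0.32. Ttk, another checkpoint kinase, and Kif20a, a kinesin of cytokinesis, were at 0.29 and 0.22.

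Where a gene had several targets, their agreement differed by comparison. For ATRA+NIC minus ATRA, the targets had the same sign in 13 of the 16 members with several, and in 10 of 10 where at least 2 targets read at least 2 times the random probes on all arrays, counting those targets. Over 6817 symbols kept with several targets, 40.9% had the same sign in that comparison. In ATRA minus Control the members' targets did so in 9 of 16, against 43.4% of those symbols, in NIC minus Control in 6 of 16, against 43.7%, and in ATRA+NIC minus NIC in 5 of 16, against 48.2%. Among the 10 members with bright targets the same 3 counts were 7, 5 and 5. For bright targets no share over all symbols was computed, so these counts and the 10 of 10 have no background. The median gap between targets of one member was 0.33 in ATRA+NIC minus ATRA and 0.54 in ATRA minus Control, against 0.65 and 0.66 over those symbols. Targets of one gene lie on the same array and are no replicates of a group.

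**Figure D4:**
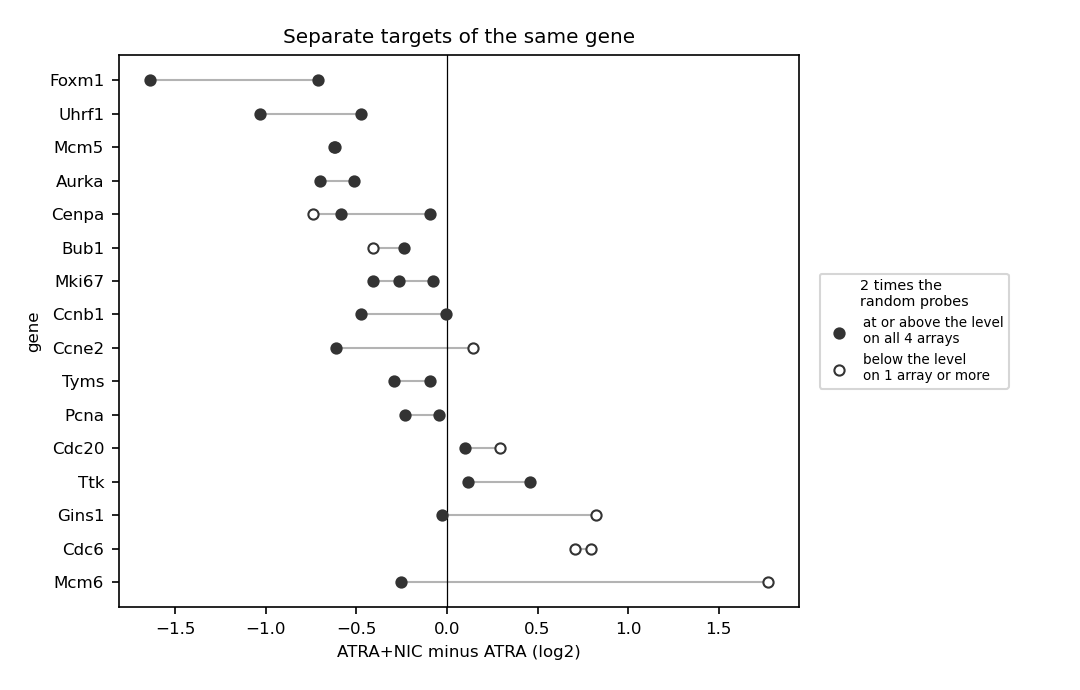
Log2 difference ATRA+NIC minus ATRA of each target of the members that have several, with 1 gene a row. Filled points read at least 2 times the random probes on all 4 arrays, and open points did not. The targets of a gene lie on one side of 0 for 13 of 16 genes, and those of Mcm6 lie farthest apart.

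Other genes of the pathway, listed by role with earlier results of these data known, lay much as the members did in ATRA+NIC minus ATRA. They were read on the same 4 arrays. Of 43 other replication genes, 33 were above 0 in ATRA minus Control (median 0.21), against 55.0% of symbols kept, and 33 below 0 in ATRA+NIC minus ATRA (median -0.38), against 52.9%. On ATRA+NIC 4 of them were at least 2-fold lower than on ATRA, against 4.26% of symbols kept, and 1 higher, against 5.00%. In ATRA+NIC minus NIC, 28 of the 43 were below 0 (median -0.32), against 50.4% of symbols kept. The genes named here and among the other mitosis genes had the same sign in both ATRA or both nicotinamide differences. Genes that reversed in both are not named. Pold2, a subunit of DNA polymerase delta, read 1136 on ATRA, 951 on ATRA+NIC, 544 on NIC and 703 on Control, so both arrays with ATRA were the higher ones. Hells, a chromatin remodeller, was at 1.01 and 0.46 in the ATRA differences. Rfc4, a clamp loader subunit, was at -1.75 in ATRA+NIC minus ATRA but read under 2 times the random probes on 2 arrays.

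Of 51 other mitosis genes, 31 were above 0 in ATRA minus Control, against 55.0% of symbols kept. Their median there was 0.09, nearer to that of symbols kept (0.06) than to that of members (0.26). In ATRA+NIC minus NIC, 31 of the 51 were below 0, against 50.4% of symbols kept, with a median of -0.06. In ATRA+NIC minus ATRA, 37 of the 51 were below 0, against 52.9% of symbols kept, with a median of -0.23. There 7 were at least 2-fold lower, against 4.26%. Ncapg, a condensin subunit, was at -1.11 and Cdca5 (sororin), which protects sister chromatid cohesion, at -0.72, and both were also lower in NIC minus Control, at -0.62 and -1.11. Ect2, an activator of the contractile ring, was at 0.64 in ATRA+NIC minus ATRA. Fam83d, a spindle protein, was at -0.86 and -1.84 in the ATRA differences, with 2 arrays under 2 times the random probes.

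Of 14 G1 cyclins, kinases and growth regulators, 11 were below 0 in ATRA+NIC minus ATRA, against 52.9% of symbols kept, with a median of -0.26. In ATRA+NIC minus NIC 10 were below 0, against 50.4%, and in ATRA minus Control 8 were above 0, against 55.0%. Except for Ccnd1, the genes named next had the same sign in both ATRA or both nicotinamide differences, so genes that reversed are not named. Ccnd2, cyclin D2, read 946 on ATRA, 927 on ATRA+NIC, 1653 on NIC and 1645 on Control, with ATRA differences of -0.80 and -0.83. Ccnd1, cyclin D1, read 2005 on ATRA, 1476 on ATRA+NIC, 1861 on NIC and 1420.03 on Control, so each cream alone was above Control and the combination nearer to it. E2f2, an activating E2F factor, was at -0.90 and -1.34 in the ATRA differences, with 2 arrays under 2 times the random probes, while E2f3 was at -0.25 and -0.42 and the phosphatase gene Cdc25a at 0.34 and 0.01, each with 1 array under that level.

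The 23 cell cycle inhibitors and p53 targets had medians of 0.01 in ATRA+NIC minus ATRA and -0.36 in ATRA+NIC minus NIC. Cdkn1a, which encodes the inhibitor p21, read 1056 on ATRA, 1238 on ATRA+NIC, 1591 on NIC and 1056 on Control, with NIC highest. Gadd45a, a DNA damage response gene, read 1176 on ATRA, 1182 on ATRA+NIC, 1835 on NIC and 1854 on Control. Both arrays with ATRA were lower for it. Cdkn1b (p27) was at -0.49 and -1.08 in the ATRA differences, Cdkn2d at -0.60 and -0.54 and Cdkn2b at 0.73 and 0.41. Cdkn1b read under 2 times the random probes on 2 arrays and Cdkn2b on 1.

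**Figure D5:**
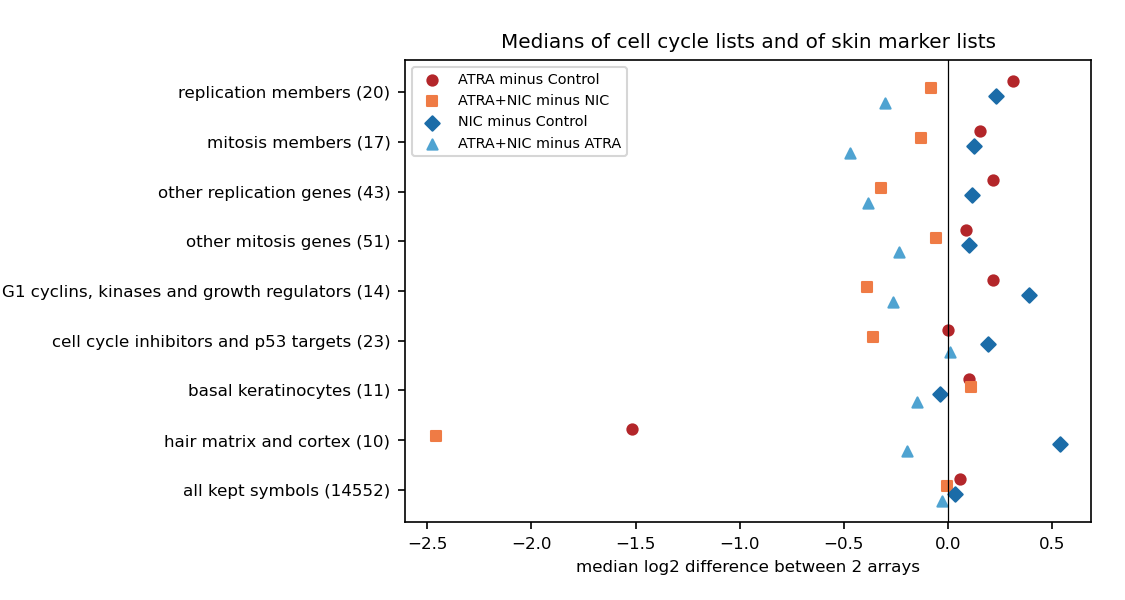
Median log2 difference of each gene list in 4 comparisons, with the number of genes in brackets. The replication and mitosis lists lie below 0 in ATRA+NIC minus ATRA. The hair matrix and cortex list, which also holds inner root sheath keratins, lies far below 0 in both ATRA differences.

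Markers of other skin cells also differed between the arrays. The hair matrix and cortex list (10 of 14 genes measured, 1 of them under 2 times the random probes on all arrays) had medians of -1.52 and -2.46 in the ATRA differences. Its summed intensity was 16594 on ATRA, 15862 on ATRA+NIC, 90268 on NIC and 64118 on Control. Krt71 and Krt25, which are keratins of the inner root sheath, carried most of each sum. Krt71 read 10642 on ATRA, 8722 on ATRA+NIC, 42996 on NIC and 30874.5 on Control. Krt25 read 2947, 4472, 23029 and 19349 on the same arrays. Where the members were lowest, in ATRA+NIC minus ATRA, the list's median was -0.20. Basal keratinocyte markers (11 genes) had medians of 0.10 and 0.11 in the ATRA differences and -0.15 in ATRA+NIC minus ATRA, with summed intensities of 87470 on ATRA, 77912 on ATRA+NIC, 76328 on NIC and 74038 on Control. Krt15, a basal and bulge keratin, was at -0.69 and -2.20 in the ATRA differences. Neutrophil markers (5 genes) summed to 53824 on ATRA, 52686 on ATRA+NIC, 5306 on NIC and 15261 on Control. S100a8 and S100a9, which keratinocytes can also express, made up 98.3% of the sum on ATRA, and the other 3 genes summed to 899.7 on ATRA, 499 on ATRA+NIC, 443 on NIC and 378 on Control. Of these, Csf3r was at 1.47 and 1.29 in the ATRA differences, Retnlg at 1.88 and 0.84, and Cxcr2 at 0.71 and -0.45. Csf3r read under 2 times the random probes on 2 arrays. Macrophage markers (6 genes) summed to 25527 on ATRA, 17788 on ATRA+NIC, 13208 on NIC and 20035 on Control. Melanocyte markers (5 genes) summed to 2450.3 on ATRA, 1823 on ATRA+NIC, 12072 on NIC and 4764 on Control, and T cell markers (5 genes) to 952 on ATRA, 722 on ATRA+NIC, 778 on NIC and 975 on Control. The medians of suprabasal keratinocyte, sebocyte, fibroblast, endothelium, muscle and adipocyte markers lay between -0.46 and 0.56 in the 5 comparisons. The part of these cells in the members' differences was not tested.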

How the data were processed

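Skin RNA of 4 groups was measured on 1 array each. The authors deposited, for each array, a linear intensity for every target, which the file names call RMA, a method that adjusts background, normalises arrays and summarises probes (3 probes for 44155 of 44170 targets). The software is not given in the sources used here. A deposited value table of the series served as an alternative, and 8 further per-sample columns were not used.

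The log2 of each intensity was used without renormalizing. Targets were named by gene ID (39057), by the array's symbol (2829) or not at all (2284), and targets of a symbol were averaged. Symbols at or above the array's median on at least 1 array (14552 of 24171) served as background, and no filter was applied to members. Counts past 2-fold and 1.5-fold and medians were taken for 5 differences. With 1 array a group no test was made, so the number of arrays limits precision. Promoters were RefSeq entries of GRCm38.p6, and target positions are on MM9, per the file headers. Named genes were all members at least 2-fold apart in any difference, with Mki67, Top2a, Ccnb1, Ccne1, Pcna, Mcm2 and E2f1. In other lists they were up to 4 genes with the largest value of the smaller difference, where both ATRA or both nicotinamide differences had the same sign, with Ccnd1, Cdkn1a, Krt5, Krt14 and Krt15. Of those lists, Cxcr2 and Krt71 were named outside this rule. One gene that this rule names is not reported here. Members and lists were chosen with earlier results of these data known. The summaries were tested on simulated data. Python 3.11.15, pandas 2.3.3, numpy 2.4.6, R 4.3.3 and limma 3.58.1 (cyclic loess, as an alternative) were used.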

Additional observations from a re-analysis of the deposited data

Results flagged for a closer look

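Bub1b and Cdc45 went in opposite directions, each by at least 1.5-fold, in differences that share no array. Bub1b was at 0.85 for ATRA against Control and -1.15 for ATRA+NIC against NIC, a difference of -2.00 on the log2 scale, and at 0.61 in NIC minus Control and -1.39 in ATRA+NIC minus ATRA. Cdc45, matched by gene ID, was at 0.70 and -1.27 in the ATRA differences, a difference of -1.96, and at 0.64 and -1.32 in the 2 nicotinamide differences. The difference was not tested, since each group has 1 array. Of symbols kept, 4.01% did the same in the ATRA differences and 4.17% in the nicotinamide differences. Among the 37 members Bub1b alone did so, a share near that of symbols kept, and Cdc45 is not counted among them. Both pairs of differences give the same number for each gene, so they are not separate results.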

How the results depend on the processing

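Median array centring, cyclic loess, no filter on dim symbols, a floor at 2 times the random probes, members that pass the filter only, and adding Cdk1 and Cdc45 changed no count by over 1.5 times and moved no member median by over 0.1. No member median changed its sign under any alternative run. The member median ranged from 0.17 to 0.29 in ATRA minus Control, -0.19 to -0.07 in ATRA+NIC minus NIC, 0.13 to 0.26 in NIC minus Control, -0.47 to -0.28 in ATRA+NIC minus ATRA and -0.22 to -0.06 in ATRA+NIC minus Control. With the brightest target of each gene, 4 members passed 2-fold upward in ATRA minus Control: Pola1, Ccne1, Aurka (1.14) and Ccne2 (1.13). With their dimmer targets (0.57 and 0.34) averaged in, Aurka and Ccne2 were at 0.86 and 0.74. With the 7 members at or above the 75th percentile of brightness, 0 were 2-fold higher in ATRA minus Control, 0 higher and 0 lower in ATRA+NIC minus NIC, 0 higher in NIC minus Control (median 0.26), 0 lower in ATRA+NIC minus ATRA, and 0 higher and 0 lower in ATRA+NIC minus Control. With the series value table (35 members), 0 were higher in ATRA+NIC minus NIC and in ATRA+NIC minus Control, whose median was -0.22. With a filter on the mean over arrays, chosen after seeing the data (32 members), 1 was higher in ATRA minus Control, 0 in ATRA+NIC minus NIC and 0 in ATRA+NIC minus Control, and the median of ATRA+NIC minus ATRA was -0.47. These settings hold fewer members by construction, and Pola1 is in none of them. In the main analysis Pola1 was the only member 2-fold higher in ATRA+NIC minus NIC and in ATRA+NIC minus Control. Dim members are limited by signal over background: 1 to 3 read under 2 times the random probes on each array. No paired analysis was possible because each group has 1 array.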
